A study of Micropterus salmoides with 6 samples.

Results

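Collagen is made in the endoplasmic reticulum (ER) by a set of enzymes and chaperones, carried out of the cell in large transport vesicles, and trimmed and crosslinked outside it. The genes for these steps were examined in whole-body RNA of largemouth bass larvae (Micropterus salmoides), a predatory fish raised in fresh water. They were chosen by gene symbol: the prolyl and lysyl hydroxylases, the collagen galactosyltransferases, HSP47, ER-resident FKBP isomerases, cyclophilin B, ER exit and retrieval genes with their transcription factors, procollagen proteinase enhancers and lysyl oxidases. The symbols of 38 genes matched, and 37 of them, of 27166 genes in all, had 10 or more counts in at least 3 libraries. The gene left out was the lysyl oxidase relative loxl2b, with 6, 3 and 3 counts in SP_L and 1, 4 and 3 counts in SP_H. Just inside the limit lay loxl3b, with 9, 21 and 13 counts in SP_L and 23, 16 and 25 counts in SP_H. Genes that carry only a LOC number were not assigned to a step, and crtap and plod1 were not analysed here.

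The SP_L group was made of larvae with deformities, taken after 12 days on a diet to which no phospholipid (0%) had been added. The SP_H group was made of normal larvae from the diet with 8% phospholipid. Each group had 3 libraries, each from 30 pooled larvae of a tank, and the 6 libraries held 14958887 to 16922264 counts. Larvae were picked by diet and by body form together, so the effects of diet and of deformity cannot be told apart. In whole-body RNA fewer cells of a type and less RNA per cell also cannot be told apart.

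Newly made procollagen chains are hydroxylated on prolines, which keeps the collagen helix stable at body temperature, and on lysines, which serve as sites for sugars and crosslinks. Chaperones such as HSP47 hold the folded helix until it leaves the ER in COPII-coated carriers, and chaperones that escape are brought back by KDEL receptors. Outside the cell the end pieces are removed and lysyl oxidases start the crosslinks that give bone, cartilage, tendon and skin their strength. In humans, defects in many of these genes cause brittle bone or connective tissue disease, and zebrafish that lack sec23a, sec24d or creb3l2 function have malformed cartilage.

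Most of these genes were at somewhat lower levels in SP_L than in SP_H, with the widest gap in the lysyl oxidase gene loxa, and none passed edgeR's quasi-likelihood test. Of the 37 members, 29 had negative log2 fold changes (SP_L over SP_H), against 49.5% of all 20627 genes tested. Their median log2 fold change was -0.13, and that of all genes was 0.00. The SD between replicates of the median member log2 CPM was 0.12, about as large as the members' median. EdgeR with Benjamini-Hochberg adjustment over all genes called 0 members, where 0.0679% of all genes were called and 0.0097% were called lower; the smallest adjusted p among the members was 0.118, for loxa. At an unadjusted p under 0.05, edgeR counted 8 members lower and 0 higher, against 5.84% of all genes lower and 6.9% higher. In 8 members all SP_L libraries lay below all SP_H libraries in TMM-scaled CPM (a gene's counts relative to the scaled total of its library), against 9.46% of all genes, and in 0 members they lay above, against 9.64%. DESeq2 called 1 member lower, loxa, where it called 0.608% of all genes lower. With library size alone as the scaling all 37 members were negative, but the median of all genes was then -0.13, and the members' median relative to all genes stayed at -0.13.

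The members' median rested in part on single libraries. It was -0.05 when either SP_L replicate 2 or SP_H replicate 3 was left out. It was -0.18 when either SP_L replicate 1 or SP_H replicate 2 was left out. Within SP_H, replicate 3 was the highest library in CPM in 25 of 37 members, against 34.0% of all genes. Within SP_L, replicate 1 was the highest in 23 of 37 members, against 34.0% of all genes, and in 16 when FPKM was used in place of CPM. As a share of all counts, the members took 0.147%, 0.132% and 0.129% in SP_L replicates 1 to 3, and 0.154%, 0.148% and 0.174% in SP_H replicates 1 to 3. The groups did not overlap in this share, though SP_L replicate 1 and SP_H replicate 2 were nearly level. The share carries no TMM scaling, and with library size alone a typical gene was also lower in SP_L (-0.13). In TMM-scaled log2 CPM the groups overlapped. There the members' median deviation from their 6-library means was 0.05, -0.11 and -0.11 in SP_L replicates 1 to 3. It was 0.01, -0.05 and 0.21 in SP_H replicates 1 to 3.

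**Figure D1:**
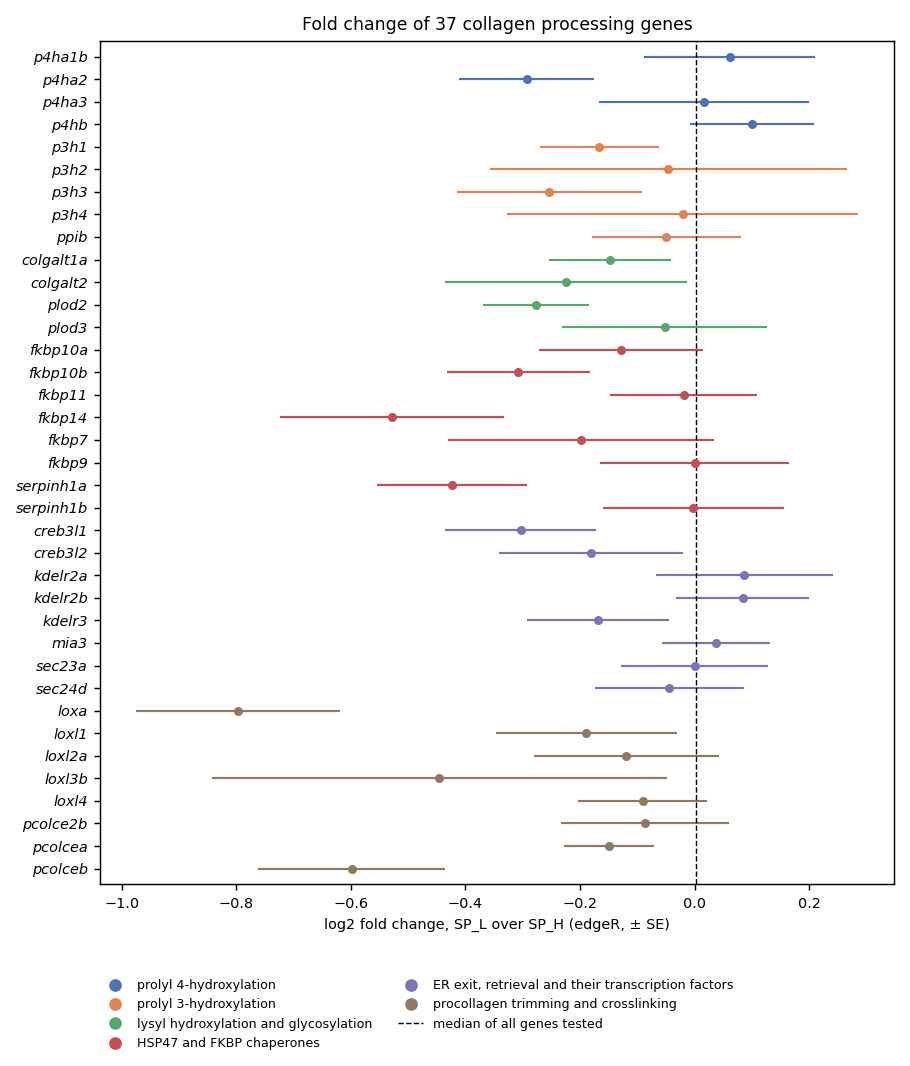
Log2 fold change of SP_L over SP_H for each of the 37 members, with bars for the standard error (edgeR), coloured by the step in collagen production; the dashed line is the median of all genes tested. loxa at -0.80, pcolceb at -0.60 and fkbp14 at -0.53 lie farthest to the left, and p4hb at 0.10 farthest to the right.

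Among the prolyl 4-hydroxylase genes, whose product makes the hydroxyproline that stabilises the helix, the alpha subunit gene p4ha2 stood below the other subunits in fold change. p4ha2 had 39.1, 34.7 and 34.0 CPM in SP_L replicates 1 to 3, against 39.1, 41.9 and 51.2 CPM in SP_H replicates 1 to 3. SP_L replicate 1 and SP_H replicate 1 were at the same level, SP_H replicate 3 was the highest, and the groups just overlapped. Its log2 fold change was -0.29 ± 0.12 (SE; edgeR adjusted p = 0.335), and -0.17 without SP_H replicate 3. The beta subunit gene p4hb, which also encodes a protein disulfide isomerase, had 224, 226 and 182 CPM in SP_L, against 203, 180 and 207 CPM in SP_H. The groups overlapped, and the log2 fold change of 0.10 ± 0.11 was within its standard error (edgeR adjusted p = 0.755) and turned to -0.03 with library size alone. The other alpha subunit genes, p4ha1b and p4ha3, had values of 0.06 ± 0.15 and 0.02 ± 0.18, which turned to -0.07 and -0.11 with library size alone.

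The prolyl 3-hydroxylation genes showed small differences. p3h1 encodes the hydroxylase that, in mammals, works in a complex with CRTAP and cyclophilin B on a proline of type I collagen. It had 30.4, 29.5 and 27.5 CPM in SP_L, against 30.9, 30.5 and 36.8 CPM in SP_H. The groups did not overlap, but SP_L replicate 1 lay only just below SP_H replicate 2, and the log2 fold change was -0.17 ± 0.10 (edgeR adjusted p = 0.556), and -0.07 without SP_H replicate 3. The cyclophilin B gene ppib, an ER prolyl isomerase, had 269, 203 and 188 CPM in SP_L, against 225, 224 and 233 CPM in SP_H. SP_L libraries lay on both sides of the closely spaced SP_H libraries, and the log2 fold change was -0.05 ± 0.13. The other members, placed in this step by symbol alone, were p3h2, p3h3 and p3h4. They had log2 fold changes of -0.05 ± 0.31, -0.25 ± 0.16 and -0.02 ± 0.31.

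Of the genes that modify lysines, plod2 differed most. It encodes the hydroxylase that, in mammals, acts on the ends of the collagen chains and so sets the type of crosslink formed there. plod2 had 43.6, 46.6 and 46.4 CPM in SP_L, against 59.9, 50.1 and 55.5 CPM in SP_H. All SP_L libraries lay below all SP_H libraries, and the log2 fold change was -0.28 ± 0.09 (edgeR adjusted p = 0.247). plod3, which encodes an enzyme that hydroxylates lysine and adds glucose to it, had a log2 fold change of -0.05 ± 0.18. The galactosyltransferase genes colgalt1a and colgalt2, which add the first sugar, had values of -0.15 ± 0.11 and -0.22 ± 0.21.

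Among the chaperones, the HSP47 gene serpinh1a, fkbp14 and fkbp10b each had an unadjusted edgeR p under 0.05, and the second HSP47 gene, serpinh1b, did not. HSP47 binds the folded collagen helix in the ER. serpinh1a had 50.7, 36.8 and 37.3 CPM in SP_L, against 51.9, 56.0 and 59.4 CPM in SP_H. SP_L replicate 1 stood far above the other SP_L libraries and close to SP_H replicate 1, and the groups did not overlap. The log2 fold change was -0.42 ± 0.13 (edgeR adjusted p = 0.213 and DESeq2 adjusted p = 0.129). In refits chosen after the data were seen, DESeq2 called serpinh1a without SP_L replicate 1 (adjusted p = 0.00102). DESeq2 did not call it without SP_L replicate 2 or 3 (0.486 and 0.444) or without SP_H replicate 1, 2 or 3 (0.186, 0.468 and 0.462). serpinh1b had 95.9, 86.2 and 62.2 CPM in SP_L, against 70.9, 82.1 and 91.6 CPM in SP_H. Its groups overlapped over most of their range, and the log2 fold change was -0.00 ± 0.16.

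The FKBP genes of this step encode ER-resident prolyl isomerases, of which FKBP10 and FKBP14 are known in humans from brittle bone and connective tissue disease. fkbp14 had 4.77, 4.45 and 5.39 CPM in SP_L, against 6.19, 8.59 and 6.30 CPM in SP_H. Its log2 fold change came to -0.53 ± 0.20 (adjusted p = 0.296 in edgeR). The groups did not overlap, and SP_H replicate 2 was the highest. fkbp10b had 69.6, 60.6 and 61.8 CPM in SP_L, against 70.4, 72.3 and 95.0 CPM in SP_H. Its log2 fold change came to -0.31 ± 0.13 (adjusted p = 0.341 in edgeR). The groups were separated by less than 1 CPM, and SP_H replicate 3 stood well above the rest; without it the log2 fold change was -0.16. The other FKBP genes, fkbp10a, fkbp11, fkbp7 and fkbp9, had log2 fold changes of -0.13 ± 0.14, -0.02 ± 0.13, -0.20 ± 0.23 and 0.00 ± 0.17.

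Genes for leaving the ER and for retrieval to it went both ways, with 4 of 8 negative (all 8 with library size alone), and the transcription factor gene creb3l1 lay farthest from 0. In mammals CREB3L1 is an ER-anchored factor that drives type I collagen and secretion genes in osteoblasts. creb3l1 had 25.7, 24.5 and 29.7 CPM in SP_L, against 36.4, 27.1 and 35.0 CPM in SP_H. SP_L replicate 3 lay above SP_H replicate 2, so the groups overlapped, and the log2 fold change was -0.30 ± 0.13 (edgeR adjusted p = 0.384). creb3l2, whose product in mammals and zebrafish drives secretion genes in cartilage cells, had a value of -0.18 ± 0.16. The COPII coat genes sec23a and sec24d had log2 fold changes of 0.00 ± 0.13 and -0.04 ± 0.13. mia3, which encodes the receptor TANGO1 that loads procollagen into carriers, had a value of 0.04 ± 0.09, which turned to -0.09 with library size alone. fkbp9 and sec23a, at 0.00, both moved to -0.13 under that scaling.

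The KDEL receptors return escaped ER proteins. kdelr2b, the most abundant of them per length, had 105, 90.9 and 76.6 CPM in SP_L, against 85.2, 82.3 and 89.8 CPM in SP_H, and SP_L libraries lay on both sides of the SP_H libraries. Its log2 fold change was 0.08 ± 0.12, and it turned to -0.05 with library size alone. kdelr2a had a value of 0.09 ± 0.16, which also turned, to -0.05, and kdelr3 had a value of -0.17 ± 0.12.

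All 8 genes of procollagen trimming and crosslinking had negative log2 fold changes under the TMM, RLE and library size scalings. So did all 5 prolyl 3-hydroxylation genes and all 4 genes that modify lysines, and with library size alone all 37 members were negative. The trimming and crosslinking genes held the members with the lowest edgeR p-values, loxa and pcolceb. loxa encodes lysyl oxidase, the copper enzyme that oxidises lysines of collagen and elastin so that crosslinks form. It had 19.7, 18.6 and 30.0 CPM in SP_L, against 42.2, 34.4 and 41.9 CPM in SP_H. SP_L replicate 3 was well above the other SP_L libraries and still below every SP_H library. The mean was 22.7 ± 6.28 CPM in SP_L and 39.5 ± 4.41 CPM in SP_H (SD, n = 3 each), and the fitted level in SP_L was lower by 42.4% (percent change -42.4). The log2 fold change was -0.80 ± 0.18, with an edgeR adjusted p of 0.118 and a DESeq2 adjusted p of 0.00272, and by edgeR p it had rank 251 of 20627 genes. The DESeq2 call was lost without SP_L replicate 1, SP_L replicate 2, SP_H replicate 1 or SP_H replicate 3 (adjusted p = 0.0819, 0.0619, 0.0617 and 0.0666), and held without SP_H replicate 2 (0.0159) or SP_L replicate 3 (5.04e-07).

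The genes pcolcea and pcolceb encode relatives of the protein that speeds removal of the C-terminal end of procollagen by BMP1. pcolceb had 5.06, 4.70 and 5.12 CPM in SP_L, against 7.81, 6.76 and 7.97 CPM in SP_H. The groups were clearly apart, and the log2 fold change was -0.60 ± 0.16 (edgeR adjusted p = 0.168 and DESeq2 adjusted p = 0.228). These values rest on 71, 75 and 78 counts in SP_L and 130, 115 and 129 counts in SP_H. The spread in SP_L was smaller than sampling of reads alone gives on average, so it does not make the difference more certain. pcolcea, far more abundant, had 74.0, 71.9 and 71.5 CPM in SP_L, against 82.3, 82.9 and 76.1 CPM in SP_H. Its log2 fold change came to -0.15 ± 0.08 (adjusted p = 0.470 in edgeR). Its groups also did not overlap. pcolce2b had a value of -0.09 ± 0.15.

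The lysyl oxidase relatives differed less from zero than loxa. loxl1, whose product in mammals is tied to elastic fibres, had a log2 fold change of -0.19 ± 0.16, and loxl2a, whose product in mammals also crosslinks basement membrane collagen, one of -0.12 ± 0.16. loxl4 had a value of -0.09 ± 0.11 and the scarce loxl3b one of -0.45 ± 0.40. The groups of each of these 4 genes overlapped. No test compared loxa with its relatives.

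**Figure D2:**
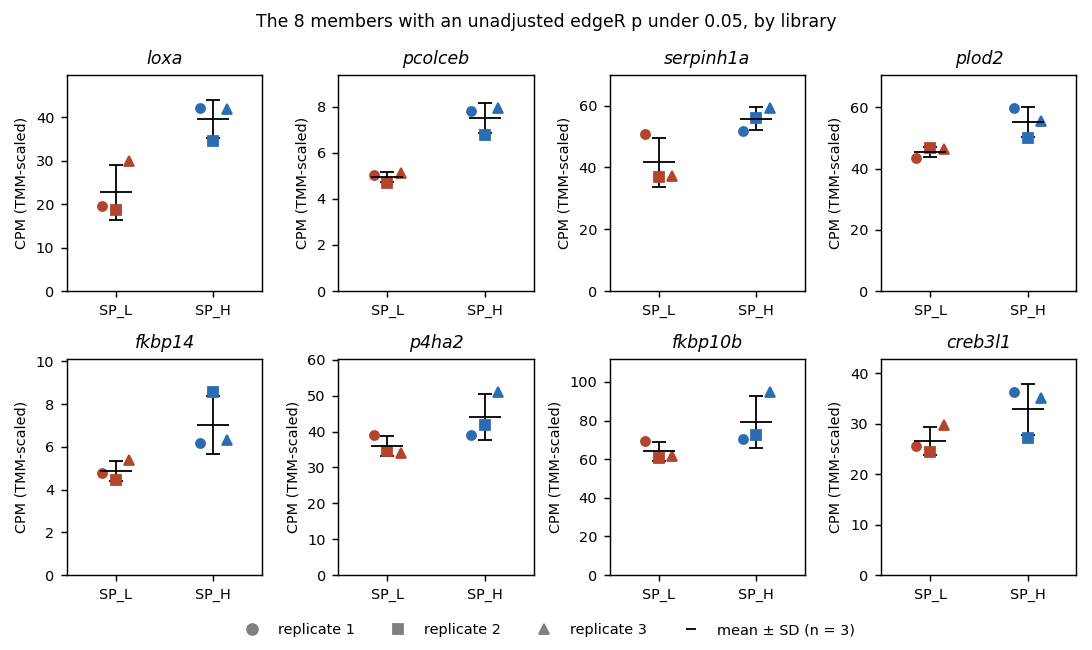
TMM-scaled CPM of the 8 members with an unadjusted edgeR p under 0.05, with 1 marker per library (circle, square and triangle for replicates 1, 2 and 3) and black bars for the mean and SD of 3 libraries. The groups lie apart in loxa, pcolceb, serpinh1a, plod2, fkbp14 and fkbp10b, and overlap in p4ha2 and creb3l1.

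In CPM, SP_L replicate 1 was the highest of the SP_L libraries in all 5 prolyl 3-hydroxylation genes, 6 of 8 exit and retrieval genes, 5 of 8 chaperones, 2 of 4 prolyl 4-hydroxylase genes, 2 of 4 genes that modify lysines and 3 of 8 trimming and crosslinking genes. SP_L replicate 3 was the highest in 4 of the last 8. This order depended on the scaling: in FPKM, SP_L replicates 1 and 3 were each the highest in 16 of the 37 members. In SP_H, replicate 3 was the highest in 25 members in CPM and in 26 in FPKM. The median coefficient of variation of the members between replicates was 11.6% in SP_L and 14.2% in SP_H, against 12.1% and 11.2% for all genes. The coefficient was lowest for pcolcea in SP_L (1.85%) and for sec23a in SP_H (1.67%), and highest for loxl3b in SP_L (36.9%) and p3h2 in SP_H (43.1%). The 2 lowest values lay below the spread that sampling of reads alone gives on average (sec23a had 169, 170 and 159 counts in SP_H). They therefore do not show tight expression between pools. For loxl3b, with 9, 21 and 13 counts in SP_L, sampling alone gives a large spread.

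**Figure D3:**
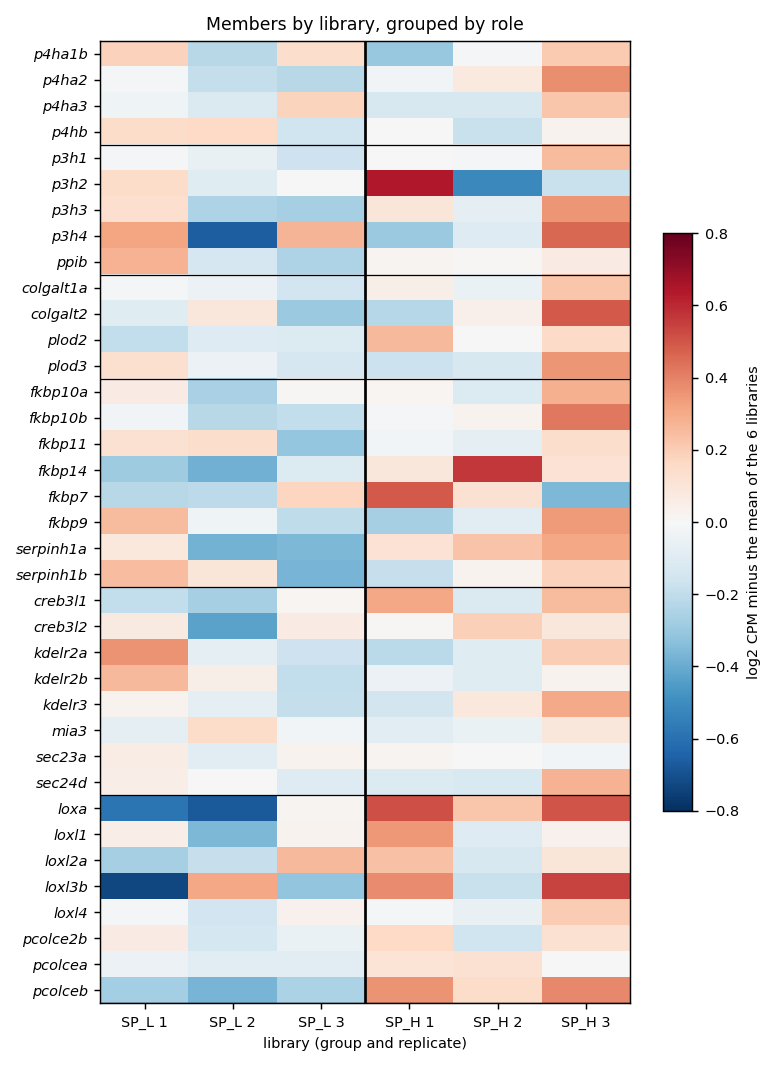
Log2 CPM of each member in each library minus its mean over the 6 libraries, with members in rows grouped by step and libraries in columns, SP_L left of the black line. SP_H replicate 3 is above the mean in most rows, SP_L replicate 1 is above it in many ER genes such as ppib and kdelr2a, and the loxa and pcolceb rows divide by group.

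Levels of different genes were compared per length, as FPKM (fragments relative to gene length and library total), which carries no TMM scaling. ppib had the highest level, with 201 ± 36.0 FPKM in SP_L and 229 ± 7.97 FPKM in SP_H, and it made up 30.4% of the members' summed mean FPKM. p4hb followed, with 62.1 ± 5.87 FPKM in SP_L and 63.5 ± 5.71 FPKM in SP_H, and then pcolcea, with 41.3 ± 0.821 FPKM in SP_L and 50.2 ± 1.82 FPKM in SP_H. Below these the order was close: of 36 pairs of neighbours in the order of levels, 32 overlapped in range over the 6 libraries. The 4 steps that did not overlap were ppib over p4hb, p4hb over pcolcea, p3h1 over mia3, and p3h2 over loxl3b, the lowest, with 0.275 ± 0.0991 FPKM in SP_L and 0.415 ± 0.106 FPKM in SP_H. loxa held place 12, with 10.8 ± 3.31 FPKM in SP_L and 20.5 ± 2.57 FPKM in SP_H, above all its relatives, the next of which was loxl2a with 3.82 ± 0.893 FPKM in SP_L and 4.53 ± 0.614 FPKM in SP_H. Of the 18 members with the higher mean FPKM 12 had negative log2 fold changes, and of the 19 with the lower mean FPKM 17 did.

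**Figure D4:**
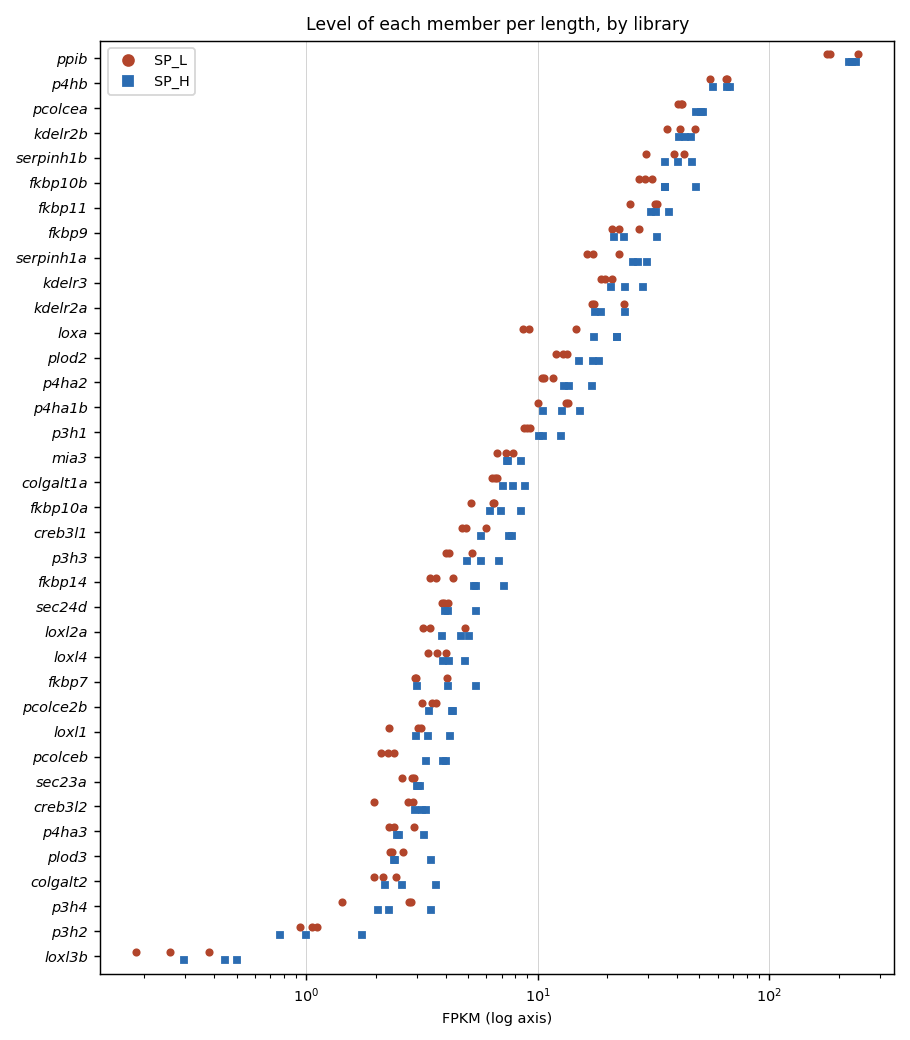
FPKM of each member in each library on a log axis, ordered by mean level, with circles for SP_L and squares for SP_H. ppib stands alone at the top, loxl3b at the bottom, and the groups are apart for loxa, which holds place 12.

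Fish carry many genes in duplicate, and both copies were kept for 4 pairs. The share of serpinh1a in the summed FPKM of serpinh1a and serpinh1b was 34.4%, 29.7% and 37.2% in SP_L, against 42.0%, 40.3% and 39.1% in SP_H. It was lower in every SP_L library than in every SP_H library, with means of 33.8 ± 3.79% in SP_L and 40.5 ± 1.48% in SP_H (SD, n = 3 each). The share of pcolcea in its pair was 94.9%, 95.1% and 94.6% in SP_L, against 93.0%, 93.9% and 92.3% in SP_H, and these did not overlap either. The share of fkbp10a was 17.1 ± 1.17% in SP_L and 15.4 ± 0.870% in SP_H, and that of kdelr2a 31.7 ± 1.65% in SP_L and 31.6 ± 2.52% in SP_H, both with overlap. These shares were not tested. How reads that match both copies of a pair were counted is not given in the sources used here, so the split between copies is uncertain.

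The clients of these genes, the collagen chains, had larger negative values than most members. Of 36 tested collagen chain genes, 28 were negative with a median log2 fold change of -0.23, and of 11 fibrillar chains, which form the fibres of bone, cartilage, tendon and skin, all 11 were negative with a median of -0.30. The 36 ranged from -0.67 to 0.82, with 16 lower and 1 higher without overlap, against 9.46% and 9.64% of all genes. EdgeR called 0 of the 36. At an unadjusted p under 0.05 it counted 15 lower and 0 higher, against 5.84% and 6.9% of all genes. DESeq2 called 3 lower, against 0.608% of all genes. These were the type I chains col1a1b, col1a1a and col1a2, whose edgeR adjusted p-values were 0.0760, 0.0862 and 0.0892. In summed FPKM the fibrillar chains had 1574, 1474 and 1697 in SP_L, against 2241, 2229 and 2405 in SP_H. The 37 members together had 726, 624 and 608 FPKM in SP_L, against 741, 720 and 825 FPKM in SP_H, and here SP_L replicate 1 lay above SP_H replicate 2. No test compared the collagen chains with the members.

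The members were also set against their clients in FPKM per 1000 FPKM of fibrillar collagen, a ratio that does not depend on how libraries are scaled. The 3 type I chains made up most of the collagen sum, with means of 1440 of 1582 FPKM in SP_L and 2108 of 2292 FPKM in SP_H. Because the fibrillar chains were lower in SP_L, this ratio was higher on average in SP_L for 93.0% of the 20616 other genes tested, with a median of 1.33 times. For the members the median was 1.21 times, and 32 of 37 had a higher mean ratio in SP_L. The ratio lay higher without overlap in 13 members, against 56% of all genes, and lower without overlap in 1, pcolceb, against 0.427%. The members together had 461, 423 and 358 FPKM per 1000 FPKM of collagen in SP_L, against 330.5, 323 and 343 in SP_H. For loxa the ratio was 5.81, 5.88 and 8.62 in SP_L, against 9.80, 7.86 and 9.14 in SP_H, lower on average (0.758 times) with SP_L replicate 3 inside the SP_H range. For pcolceb it was 1.43, 1.42 and 1.41 in SP_L, against 1.73, 1.48 and 1.66 in SP_H (0.875 times). The other members with a lower mean ratio were fkbp14 (0.916 times), loxl3b (0.977 times) and serpinh1a (0.989 times). All 37 ratios share the same denominator and were not tested.

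**Figure D5:**
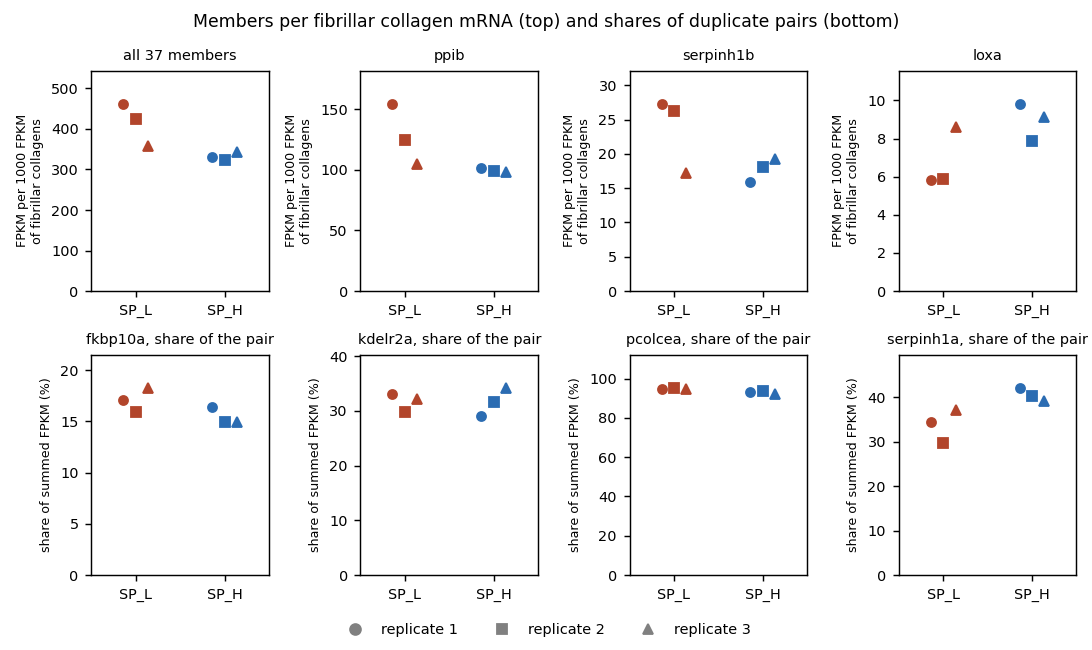
Top row: FPKM of all 37 members, ppib, serpinh1b and loxa per 1000 FPKM of fibrillar collagens, by library. Bottom row: share of the a copy in the summed FPKM of 4 duplicate pairs (%). Markers are replicates 1 to 3; the sum of members per collagen is at 358 or more in SP_L and at 343 or less in SP_H, in a ratio that was higher in SP_L for 93.0% of other genes, and the serpinh1a share is lower in every SP_L library.

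Other genes of the same pathway did not share 1 direction. Of 4 tested procollagen proteinase genes 2 were negative, among them bmp1a, the proteinase that removes the C-terminal end, at -0.26 ± 0.10 (edgeR adjusted p = 0.317). Of 17 other COPII coat and cargo genes 4 were negative, with a median log2 fold change of 0.09. One of them, sar1ab, which encodes a GTPase that starts COPII budding, had 108 ± 16.3 CPM in SP_L and 68.7 ± 4.16 CPM in SP_H (SD, n = 3 each). Its log2 fold change was 0.65 ± 0.12, with an adjusted p of 0.0760 in edgeR and 2.00e-04 in DESeq2. Of 22 general ER chaperones 10 were negative, with a median of 0.02 and a range from -0.20 to 0.18, and 0 had an unadjusted edgeR p under 0.05. EdgeR called 0 genes in each of these lists, and DESeq2 called sar1ab alone. At an unadjusted p under 0.05 edgeR counted 1 proteinase gene lower (bmp1a) and 1 COPII gene higher (sar1ab). Of all genes 5.84% were lower and 6.9% higher at that threshold.

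Other matrix and supply genes gave mixed values. Of 20 other crosslinking and fibril genes 15 were negative (median -0.18), among them sparc, a collagen-binding bone matrix gene, at -0.36 ± 0.08 (edgeR adjusted p = 0.113; DESeq2 adjusted p = 0.00406) and the proteoglycan gene bgnb at -0.34 ± 0.09. Of 11 other genes known from human osteogenesis imperfecta 8 were negative (median -0.06). Of 15 genes for the supply of copper, ascorbate and iron, the cofactors of lysyl oxidases and hydroxylases, 7 were negative (median 0.02), and the lowest p was that of slc25a37, the gene of a mitochondrial iron importer, at -0.32 ± 0.11 (edgeR adjusted p = 0.241). EdgeR called 0 genes in each of these lists. At an unadjusted p under 0.05 it counted 5 lower and 1 higher among the crosslinking and fibril genes. It counted 3 lower among the osteogenesis imperfecta genes and 1 lower among the supply genes. Of all genes 5.84% were lower and 6.9% higher at that threshold. DESeq2 called sparc, which is on the first 2 of these lists, where it called 0.608% of all genes lower.

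Summed levels of the osteoblast, fibroblast and tendon, chondrocyte, muscle fibre and red blood cell markers did not overlap between the groups, and those of the notochord, neuron and hepatocyte markers did. Of single genes, 9.46% lay lower in SP_L without overlap and 9.64% higher. No such share was computed for sums, which follow their most abundant genes. Collagen chain genes, the clients of the members, are on the osteoblast, chondrocyte, fibroblast and tendon, and notochord lists. Not all listed markers were tested, such as 8 of 14 for osteoblasts, 10 of 16 for muscle fibres and 6 of 13 for hepatocytes. Of 8 tested osteoblast markers 7 were negative (median -0.18), and their summed level was 652 to 771 CPM in SP_L and 801 to 987 CPM in SP_H; spp1 and bglapl, with log2 fold changes of -0.66 ± 0.16 and -0.82 ± 0.22, passed in DESeq2 (adjusted p = 0.00943 and 0.0128) but not in edgeR (0.129 and 0.168). Of 13 fibroblast and tendon markers, which include collagen chains, 12 were negative, with sums of 3289 to 3758 CPM in SP_L and 4409 to 4711 CPM in SP_H. Of 11 chondrocyte markers 8 were negative, with sums of 248 to 289 CPM in SP_L and 298 to 337 CPM in SP_H, and of 4 notochord markers 1 was negative, with overlapping sums. The 10 muscle fibre markers summed to 94583 to 109810 CPM in SP_L and 73254 to 82164 CPM in SP_H, and 9 of them were positive. Of these, ckma rose, at 11289 ± 872 CPM in SP_L and 6588 ± 606 CPM in SP_H (edgeR adjusted p = 0.0412). The 6 red blood cell markers summed to 2450 to 3160 CPM in SP_L and 4194 to 5060 CPM in SP_H, and of 8 neuron markers 7 were negative, with overlapping sums. The 6 hepatocyte markers were all positive, with sums of 4369 to 4894 CPM in SP_L and 2710 to 4911 CPM in SP_H, the lowest in SP_H replicate 3. Every marker present in the counts table had counts in at least 1 library. The part of these marker differences in the members' values was not tested.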

How the data were processed

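RNA was measured in 6 whole-body libraries of pooled larvae, 3 in SP_L and 3 in SP_H. The authors deposited whole-number counts per gene and FPKM values. The tools named, per the submitters' processing notes, are HTSeq, DESeq, Cufflinks, StringTie, HISAT2, Bowtie2, Trimmomatic and SAMtools, with no versions or roles. The notes name a mouse build while the symbols are those of largemouth bass, so no coordinates are printed. The deposited FPKM equalled the deposited counts divided by a gene length and the library total to within 1 in 10000 in all 24734 genes with counts in 2 or more libraries. All 38 matched symbols occur in the RefSeq gene table used for names (ASM1485139v1), and no sequences are printed. Per the labels, a stranded kit was used; the strand setting of the counting is not stated.

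Counts were fitted across all genes in R 4.3.3 with edgeR 4.0.16: filterByExpr (minimum count 10, minimum total 15), TMM scaling, quasi-likelihood F test, Benjamini-Hochberg adjustment at 0.05, no replicate block. DESeq2 1.42.0 and limma 3.58.1 were alternatives; 403 genes without a DESeq2 adjusted p, none of them members, were left out of its percentages. SP_L replicates carry the same numbers as SP_H replicates, but same-numbered libraries did not deviate together (correlations -0.07, -0.09 and -0.10), so the numbers were not used as pairs. Between replicates, squared count differences averaged 11.2 to 14.9 times what sampling alone gives. This is a mean over genes to which abundant genes add most, and it does not hold for each gene. No library was thus the same library sequenced again, but another library made from the same pool would not be told apart this way. P-values measure the spread between pools, labelled as 1 per tank. An exact permutation test of 3 against 3 cannot go below 0.10 and was not used. The tests were tested on simulated data, where the share of false calls was above the threshold in both tools and larger in DESeq2 than in edgeR. DESeq2 also recovered more of the smallest changes that were put in. The simulated counts were drawn with edgeR's own estimates of the spread between replicates, so they cannot rank the tools for these data. Calls by DESeq2 alone are read with caution. Every library's value was given for the member with the highest mean FPKM and the one with the lowest edgeR p in each step, and for those with an unadjusted edgeR p or a DESeq2 adjusted p under 0.05. In other lists up to 4 genes with the lowest p could be named. The members, the lists and the tests were chosen with earlier results of these data known. Lists are described by counts and medians only.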

Additional observations from a re-analysis of the deposited data

How the results depend on the processing

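No member was called (0) under these alternatives: RLE scaling, library size alone, limma-voom, robust dispersion, both other filters, the replicate block, log2 FPKM with a pseudocount of 1 or 0.1 in limma, and leaving out each library. Few of all genes were called in these fits: 0 in both log2 FPKM fits, 2 with the replicate block and 5 with library size alone. RLE scaling gave 14, limma-voom 18, the other filters 14 and 57, and robust dispersion 78. Leaving out 1 library gave 0 to 22. With so few calls, a count of 0 members says little about the members. DESeq2 called 1 member and 449 of all genes. Leaving out libraries gave 0 to 1 DESeq2 calls among the members (chosen after the data were seen), where 239 to 405 of all genes were called. The member called was loxa except without SP_L replicate 1, where it was serpinh1a. With the replicate block 29 members were negative, as without it, and the median was -0.13. The members' median was -0.26 with library size alone and -0.25 on log2(FPKM + 0.1), where the median of all genes was -0.13 and -0.12. With all libraries kept, RLE scaling and DESeq2 each gave 31 negative members and 7 lower without overlap. Library size alone and both log2 FPKM fits each gave 37 negative and 12 lower without overlap, where the median of all genes was also negative. Leaving out 1 library gave medians from -0.18 to -0.05, 25 to 34 negative members and 8 to 12 lower without overlap. Groups lie apart more easily with fewer libraries, and the share of all genes was not computed for these refits. Their counts without overlap therefore cannot be set against the 8 found with all libraries. Of the 29 negative members, 8 turned positive when some 1 library was left out. Among the named members, with library size alone, log2(FPKM + 1) and log2(FPKM + 0.1), p4hb turned to -0.034, -0.034 and -0.034 and kdelr2b to -0.050, -0.056 and -0.057. Leaving out 1 library gave -0.041 (without SP_L replicate 1) to 0.19 for kdelr2b, -0.23 to 0.050 for ppib (positive without SP_L replicate 2 or 3), and -0.14 to 0.16 for serpinh1b (positive without SP_L replicate 3, SP_H replicate 2 or SP_H replicate 3). The other 10 named members kept their direction in all alternatives. SP_H replicate 3 was the highest library in 24 members in FPKM and in 18 in CPM. Overlap was not recomputed for fits that leave CPM as it is.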
